A study of Homo sapiens with 8 samples.

Results

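The genes described here are 36 genes of focal adhesions and of the actomyosin contractile system, taken as a fixed list of symbols from the 19974 protein-coding genes of the RefSeq GRCh38 annotation on chromosomes 1 to 22 and X. Monomethylation of lysine 4 of histone H3 (H3K4me1), a chromatin mark of enhancers and of the flanks of active promoters, was mapped by ChIP-seq (sequencing of DNA that an antibody against the mark brings down) in MDA-MB-231 cells. This established cell line comes from a triple-negative breast cancer and is mesenchymal-like and invasive. ARID1A knockout cells were compared with control cells of the same line, with 2 immunoprecipitated and 2 input samples for each genotype, or 8 samples in 4 groups. ARID1A is a DNA-binding subunit of BAF, the mammalian SWI/SNF remodeller. The sources used here do not say how the knockout was made or whether it is 1 clone or a pool. With 1 deposited peak list for each genotype there is no spread between replicates, so no p-value was computed and each difference describes these 2 lists.

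For each gene the bases covered by peaks were counted in the RefSeq record plus 5000 bases on either side, which is called the window. A gene was called more or less covered in the knockout list when the lists differed by at least 1000 bases. Several of the genes were put on the list with these values known, so the values are a description and support nothing by themselves.

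Focal adhesions are the sites where integrins, the receptors for extracellular matrix, connect to the actin cytoskeleton. Talins and kindlins switch integrins on from the inside of the cell. Vinculin, alpha-actinins, tensins and filamins carry the force to actin. Focal adhesion kinase, Src and adaptors such as paxillin and p130Cas turn that force into signals, while non-muscle myosin II pulls on the actin filaments. In invasive breast cancer cells these proteins set how firmly a cell holds its substrate and how it moves.

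The knockout list held 73600 peaks on these chromosomes and the control list 82994, with median widths of 1587 and 1386 bases. Read totals were not used here, so depth is unknown. At ARID1A itself 39191 bases were covered in the knockout list and 44673 in the control list, which does not test the loss of the protein. Genes that this line is known to express carried peaks in both lists. The share of the window covered at CD44 was 53.8% in the knockout list and 43.5% in the control list, and at VIM it was 38.4% and 36.2%. Of 5 luminal genes examined, 4 also carried peaks in both lists. KRT19 was covered over 56.5% of its window in the knockout list and 59.4% in the control list, GATA3 over 36.3% and 35.7%, FOXA1 over 19.4% and 29.2%, and ESR1 over 7.62% and 5.67%. PGR had 0 knockout and 1081 control bases.

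All 36 genes carried peaks in both lists, and they were more densely marked than the average gene. The median share of the window covered was 28.5% in the knockout list and 32.3% in the control list, against 8.73% and 9.39% over all protein-coding genes. BCAR1, which encodes the docking protein p130Cas, had the highest share in each list, with 63.5% in knockout and 66.2% in control cells. PARVB, which encodes beta-parvin, had the lowest, with 1.77% and 1.03%.

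By the call at 1000 bases, 8 of the 36 genes (22.2%) were more covered and 20 (55.6%) less covered in knockout cells. Over all protein-coding genes 20.2% were higher and 30.0% lower by the same rule. The median difference, knockout minus control, was -1425.5 bases over the 36 genes and 0 over all genes, of which 3160 had no peak in either list. In all, 1515493 bases were covered in the knockout list and 1734202 in the control list, a ratio of 0.874, against 0.942 over all genes. The median window was 148412 bases for these genes and 34170.5 for all genes. Over all genes both calls were more frequent at longer records, whereas among the 36 genes the share less covered hardly changed with length. Of the 21 genes with a record of at least 100000 bases, 33.3% were more and 57.1% less covered in knockout cells, against 32.0% and 44.9% of all genes of that length. Of the 15 shorter ones these shares were 6.67% and 53.3%, against 17.8% and 27.0% of all shorter genes.

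Most of the difference in bases lay in a few genes. The 10 with the largest difference made up 86.1% of the summed absolute difference, and 6 of them were less covered and 4 more covered in the knockout list. LIMCH1, BCAR3, LPP and MACF1 ranked 1, 4, 5 and 10 among all 19974 genes by the deficit of covered bases in the knockout list, TNS1 ranked 24 and VCL 84. By excess, DST ranked 19, TNS3 31, PDLIM5 38 and MYLK 102. The other 26 genes had a ratio of covered bases of 0.932. Of these, 14 (53.8%) were less covered and 4 (15.4%) more covered in knockout cells, with a median difference of -1343.5 bases. Of all genes with a peak, 35.6% were less and 24.0% more covered. With peaks of −log10 q of at least 5, 9 of the 26 were less and 8 more covered, with a ratio of 1.03. Over all genes, those with no peak included, 17.7% were then less and 26.7% more covered, with a ratio of 1.14.

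**Figure D1:**
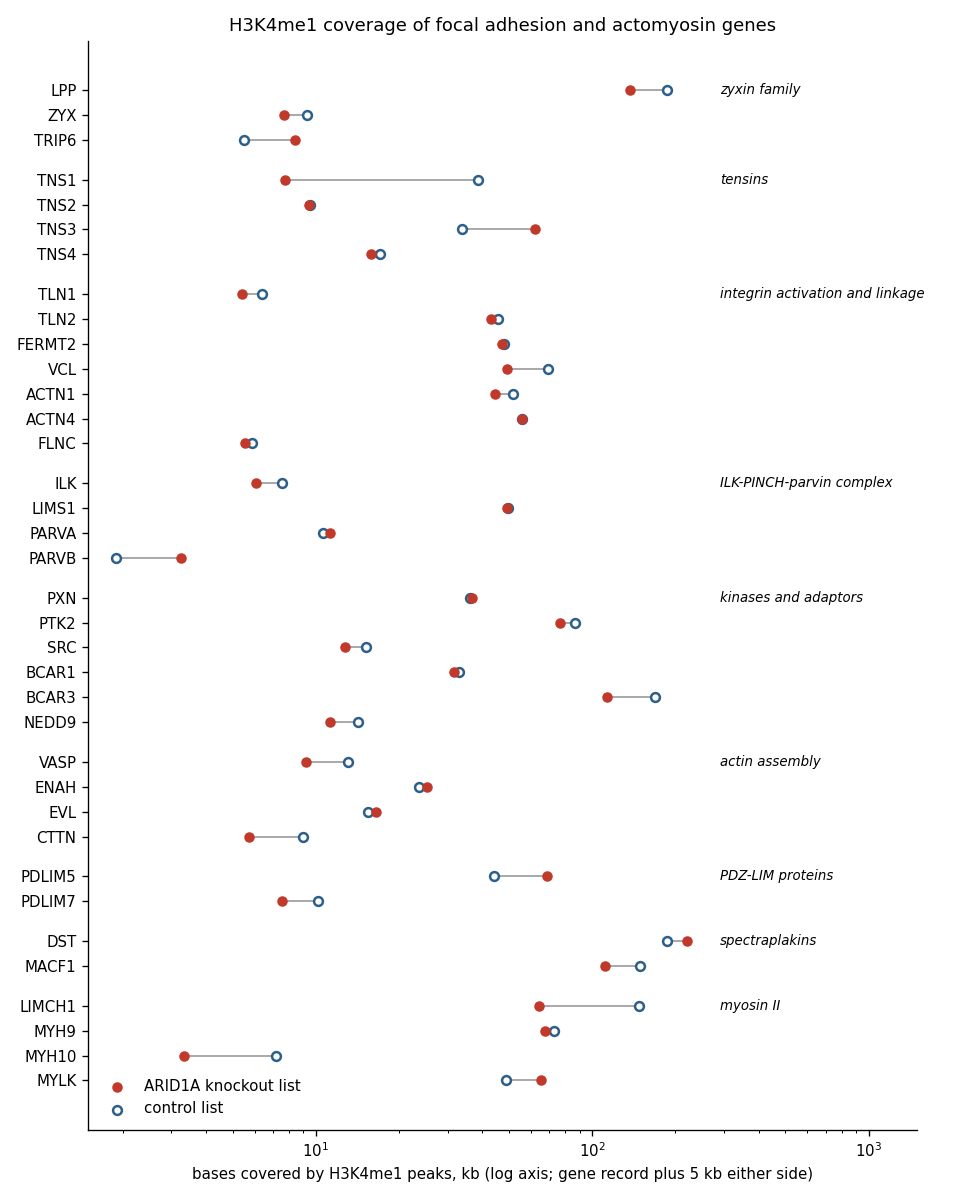
Bases covered by H3K4me1 peaks at each of the 36 genes, in kb on a log axis, with filled red points for the ARID1A knockout list, open blue points for the control list and genes grouped by role. The widest gaps on this axis are at TNS1, with 7760 knockout and 38669 control bases, and at LIMCH1, with 64102 and 147284, both lower in the knockout list.

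The zyxin family consists of LIM-domain proteins that gather at tensed adhesions and stress fibres, and its members differed in direction. LPP (lipoma-preferred partner, chromosome 3, 188153021 to 188890671) had 136702 covered bases in the knockout list and 186969 in the control list. ZYX, which encodes zyxin, had 7654 knockout and 9282 control bases. TRIP6, which encodes a zyxin relative that also binds lysophosphatidic acid receptors, had 8380 knockout and 5489 control bases. Thus LPP and ZYX were less covered and TRIP6 more covered in knockout cells. The input background can be worked back from the pileup and fold of each peak. Over peaks within 1000000 bases of LPP, its knockout to control ratio was 0.604 when the ratio over all peaks is set to 1, the lowest of the 36 genes. Among peaks with a fold over input of at least 4, LPP had 74518 knockout and 59854 control bases, the opposite order. The part of the input in the LPP difference was not tested.

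Tensins link the tails of integrins to actin, and the 4 genes of this family included a large difference in each direction. TNS1 (chromosome 2, 217799791 to 218033982) had 7760 covered bases in 4 knockout peaks and 38669 in 12 control peaks. TNS3 (chromosome 7, 47275154 to 47582586) had 62095 bases in 23 knockout peaks and 33787 in 22 control peaks. TNS2 had 9432 knockout and 9492 control bases. TNS4, the short tensin that lacks the actin-binding part and is also called Cten, had 15778 knockout and 17128 control bases. The implied background ratios of TNS1 and TNS3 were 1.04 and 0.934, near the genome-wide value of 1.

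Whole control peaks at TNS1 had no knockout counterpart. Of its 12 control peaks 8 overlapped no knockout peak, and these held 20924 bases. None of its 4 knockout peaks lacked a control overlap. The strongest of the 8 was 6407 bases wide (chromosome 2, 217917777 to 217924183, −log10 q 14.8, fold over input 5.93) and was the strongest single-list peak of all 36 genes. The second was 3820 bases wide (217927792 to 217931611, −log10 q 7.27). A further control peak of 5597 bases (217932945 to 217938541, −log10 q 9.71) met a single knockout peak of 479 bases with a −log10 q of 1.39. These 3 control peaks span 20765 bases inside the gene. The control peak toward the 3′ end, 7066 bases wide with a −log10 q of 10.5, was kept in the knockout list as a peak of 3753 bases with a −log10 q of 7.74. The −log10 q and fold of a peak come from the authors' peak caller and serve here to rank or filter peaks within each list. Depth is unknown, so values or cuts set side by side for the 2 lists do not measure a difference in signal. With peaks of −log10 q of at least 5, TNS1 kept 3753 knockout and 29271 control bases.

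At TNS3 the extra bases lay in unshared peaks as well as in wider shared ones. Knockout peaks without control overlap numbered 8 and held 11484 bases, and another 22341 knockout bases were parts of shared peaks that the control list did not cover. The widest knockout peak was 9282 bases (47450870 to 47460151), of which 2 control peaks covered 56.1%. The strongest peak of each list was at the same place, 47290347 to 47294873 in the knockout list and 47290127 to 47293598 in the control list. With peaks of −log10 q of at least 5 the difference was smaller, with 40687 knockout and 23647 control bases.

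**Figure D2:**
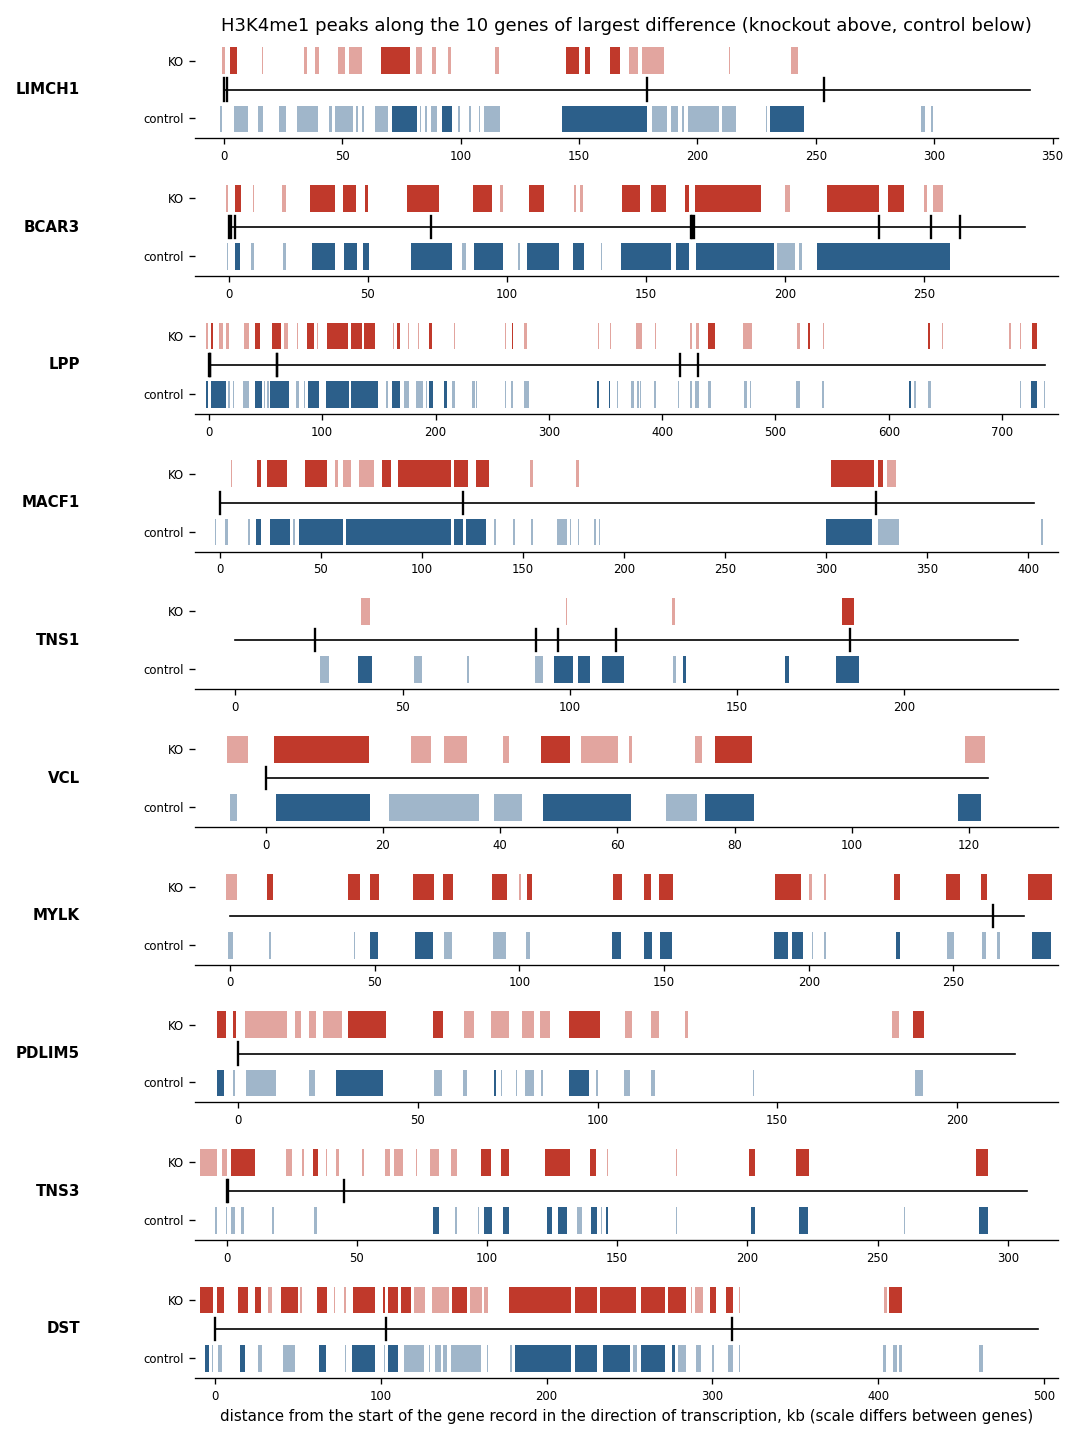
H3K4me1 peaks along the 10 genes with the largest difference in covered bases, drawn from the start of the gene record in the direction of transcription, in kb, with knockout peaks in red above the gene line and control peaks in blue below. Dark boxes have a −log10 q of at least 5, pale boxes less, and black ticks are RefSeq start sites; the 3 strong control peaks in the middle of TNS1 have no strong knockout counterpart, and the wide control peak of LIMCH1 is met by several narrower knockout peaks.

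Among the genes that activate integrins and tie them to actin, none of 7 was more covered in the knockout list by 1000 bases and 3 (42.9%) were less covered, against 35.6% of all genes with a peak. At −log10 q of at least 5, 2 genes differed in each direction, against 26.7% of all genes higher and 17.7% lower, those with no peak included. VCL (vinculin, which binds talin and actin under tension, chromosome 10, 73998116 to 74121363) had 49139 knockout and 69047 control bases. No VCL peak of either list lacked an overlap. It had 11 knockout and 8 control peaks, and 23753 control bases lay in parts of shared peaks that the knockout list did not reach. The widest VCL peak, just inside the gene, hardly differed, with 16128 knockout and 16052 control bases. Among peaks with a fold of at least 4 the VCL difference was small, with 6346 knockout and 8299 control bases. Its implied background ratio was 0.849, and the part of the input was not tested.

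ACTN1 and ACTN4 encode the non-muscle alpha-actinins, which crosslink actin filaments. ACTN1 had 44571 knockout and 51556 control bases and ACTN4 55556 and 55668. Each carried a single very wide peak in each list. It measured 41964 knockout and 44022 control bases at ACTN1 (68935688 to 68977651 in the knockout list, chromosome 14) and 44138 and 47726 bases at ACTN4. The talin genes TLN1 and TLN2 had 5414 and 42899 knockout bases and 6365 and 45609 control bases. TLN2 had 1 knockout peak without control overlap and 8 control peaks without knockout overlap, yet with a −log10 q of at least 5 its order was opposite, with 30186 knockout and 26057 control bases. FERMT2, which encodes kindlin-2, had 47170 knockout and 48016 control bases, and among those stronger peaks 39374 and 29350. FLNC, the muscle filamin gene, had 5562 and 5890.

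The complex of integrin-linked kinase, PINCH and parvin sits directly behind integrins and held no large difference when all peaks were counted. ILK had 6069 knockout and 7570 control bases. With a −log10 q of at least 5 it kept 4385 knockout bases and 0 control bases, with an implied background ratio of 1.32. Its highest control −log10 q was 4.89, just under the cut, and its highest knockout value 15.3. LIMS1, which encodes PINCH1, had 49062 knockout and 49661 control bases. PARVA had 11280 and 10586, and 8187 and 1249 among those stronger peaks, with an implied background ratio of 1.52. PARVB had 3254 and 1885, and among the stronger peaks it turned to 0 knockout and 1410 control bases. Its highest −log10 q was 4.48 in the knockout list and 5.13 in the control list, so the turn rests on the cut. Over the 4 genes 69665 bases were covered in the knockout list and 69702 in the control list. Among the stronger peaks these were 46719 and 39384, with 2 genes more and 2 less covered in knockout cells, against 26.7% and 17.7% of all genes.

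Among the kinases and adaptors, 5 of 6 genes (83.3%) were less covered in the knockout list, against 35.6% of all genes with a peak. At −log10 q of at least 5 the same 5 were less covered and the other was more covered. Of all genes, those with no peak included, 17.7% were then less and 26.7% more covered. BCAR3 had the largest difference. BCAR3 (chromosome 1, 93561741 to 93848151), whose product binds p130Cas and is known for making breast cancer cells resistant to anti-oestrogens, had 113524 knockout and 169190 control bases. It had nearly the same number of peaks in each list, 22 and 21, and no knockout peak without control overlap. In the 3′ part of the gene the widest control peak of 47878 bases (93588592 to 93636469) met 4 knockout peaks that covered 60.7% of it. The implied background ratio was 0.987, and the difference was nearly as large with peaks of −log10 q of at least 5, with 102148 knockout and 156233 control bases.

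PTK2, which encodes focal adhesion kinase, had 76375 knockout and 86568 control bases. Its strongest knockout peak (chromosome 8, 141002447 to 141006167, −log10 q 21.8) and its strongest control peak (140789776 to 140798694, 15.1) were at different places. Both places had peaks in each list. The control list covered 85.4% of the strongest knockout peak, and the knockout list 72.3% of the strongest control peak. SRC had 12772 knockout and 15190 control bases. BCAR1 had 31663 and 33000, and NEDD9, its paralog that drives migration, had 11293 and 14151 with an implied background ratio of 1.53. PXN, which encodes paxillin, was the exception, with 36817 knockout and 36058 control bases and a single peak of 30705 knockout and 30506 control bases over most of its marked part.

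The Ena/VASP proteins lengthen actin filaments at their tips. VASP had 9189 knockout and 13082 control bases, whereas its paralogs ENAH and EVL had 25197 and 16497 knockout bases and 23686 and 15473 control bases. ENAH lay where the implied background ratio was 1.33, and with a −log10 q of at least 5 it had 19039 knockout and 7480 control bases. EVL exceeded the threshold of 1000 bases by 24 bases, and TLN1, with a difference of -951, lay just short of it on the other side. CTTN, which encodes cortactin, a protein of lamellipodia and invadopodia, had 5706 knockout and 8968 control bases. With a −log10 q of at least 5 it had 5706 and 5160. The PDZ-LIM genes went opposite ways. PDLIM5 (chromosome 4, 94451942 to 94668223), whose product binds alpha-actinin and protein kinases, had 68665 knockout and 44050 control bases, and PDLIM7, also called Enigma, had 7544 and 10156. The strongest PDLIM5 peak had a −log10 q of 7.27 in the knockout list and 5.45 in the control list, and with a −log10 q of at least 5 it kept 27470 knockout and 20602 control bases. With a fold of at least 4 the order was opposite, with 0 knockout and 708 control bases. Its highest fold was 3.99 in the knockout list and 4.13 in the control list, so this order rests on the cut.

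The spectraplakins are giant linkers of actin and microtubules, and the 2 genes of this family differed in opposite directions by similar amounts. DST (dystonin, chromosome 6, 56457996 to 56954830) had 221075 knockout and 186728 control bases, the highest count of the 36 genes in the knockout list. MACF1 (chromosome 1, 39084167 to 39487138) had 111697 knockout and 149224 control bases. At MACF1 a control peak of 52036 bases (39146586 to 39198621) met 4 knockout peaks covering 77.5% of it, and 11 of 21 control peaks had no knockout overlap. The implied background ratio of MACF1 was 0.968 and its order held in every alternative setting tried. At DST the ratio was 1.78, the highest of the 36 genes. Among peaks with a fold of at least 4 DST had 61921 knockout and 85814 control bases, the opposite order, and with a −log10 q of at least 5 it had 182189 and 109057. The part of the input in the DST difference was not tested.

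The myosin II group holds the heavy chain genes MYH9 and MYH10 together with LIMCH1 and MYLK, whose products act on myosin. In the knockout list 3 of the 4 were less covered and 1 more covered, against 35.6% and 24.0% of all genes with a peak. With −log10 q of at least 5, 2 were less and 1 more covered, against 17.7% and 26.7% of all genes, those with no peak included. MYH9, with a difference of -664 bases, then fell short of the call. LIMCH1 (chromosome 4, 41359607 to 41700044), whose product binds and activates non-muscle myosin IIA, had 64102 bases in 19 knockout peaks and 147284 in 31 control peaks. No other of the 19974 protein-coding genes had a larger deficit of covered bases in the knockout list. Of the control peaks 15 had no knockout overlap and held 28870 bases, and 66367 further control bases were parts of shared peaks. The widest control peak of 35815 bases (41502369 to 41538183) was also the strongest, with a −log10 q of 7.16, and 5 knockout peaks covered 49.8% of it. With peaks of −log10 q of at least 5, LIMCH1 kept 27518 knockout and 64946 control bases. Its implied background ratio was 1.04.

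The heavy chain gene MYH9, whose product LIMCH1 binds, carried 1 peak of 59338 knockout and 59232 control bases (36326577 to 36385914 in the knockout list, chromosome 22). In its whole window 67221 knockout and 72975 control bases were covered. MYH10, the gene of myosin IIB, was sparsely marked, with 3337 knockout and 7186 control bases, of which only 1527 were common to both lists. MYLK (chromosome 3, 123610049 to 123884332), the kinase that switches myosin on by phosphorylating its light chain, went the other way with 65042 knockout and 48564 control bases. The MYLK difference was larger at a −log10 q of at least 5, with 59340 knockout and 30815 control bases, and the implied background ratio was 0.965. Of the 19906 bases covered in the knockout list alone, 19191 were parts of shared peaks, and only 1 of 19 knockout peaks had no control overlap.

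**Figure D3:**
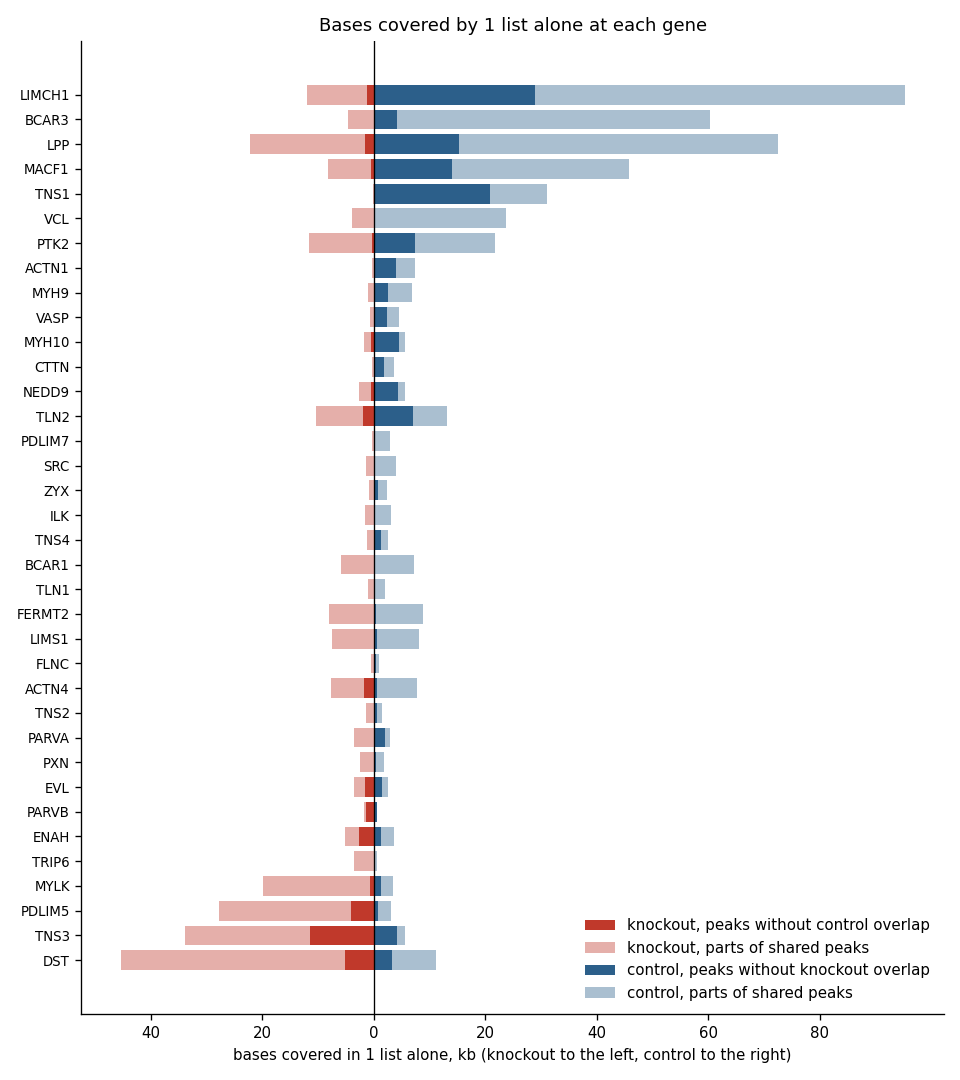
Bases covered in 1 list alone at each of the 36 genes, in kb, with knockout bases to the left and control bases to the right; full colour marks peaks with no overlap in the other list and pale colour marks parts of shared peaks. At TNS1 most of the control bases lie in unshared peaks (20924 of 31090), whereas at BCAR3 and VCL nearly all are parts of shared peaks.

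Most peaks at these genes overlapped a peak of the other list. Of 355 knockout peaks 33 (9.30%, 95% exact interval 6.49 to 12.8) overlapped no control peak, against 21.3% of the whole knockout list. Of 420 control peaks 107 (25.5%, 21.4 to 29.9) overlapped no knockout peak, against 28.2% of the whole control list. These shares depended on the peaks compared. With a −log10 q of at least 5 they were 28.2% of knockout and 19.5% of control peaks, the opposite order. They were 31.2% and 34.3% with a fold of at least 4, and 21.4% and 35.5% when 50% of a peak had to be covered. The whole-list shares in these settings are not given here, so the opposite order cannot be called particular to these genes. The intervals cover counting error over peaks only, and neighbouring peaks are not independent. In the quartile of highest −log10 q, 0 of 134 knockout peaks lacked an overlap, for which the interval reaches 2.72%, and in the whole list 1.58% did. In the lowest quartile 18 of 62 knockout peaks (29.0%, 18.2 to 41.9) had none, against 50.7% in the whole list. The peaks at these genes were also wider than those of the whole lists, with medians of 2471 knockout and 2037.5 control bases. The part of width in these shares was not tested.

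The unshared knockout peaks were weak. The strongest, at TLN2 (chromosome 15, 62569245 to 62571107), had a −log10 q of 3.86. It was followed by peaks at MYH10 (chromosome 17, 8631894 to 8632411, −log10 q 3.77), EVL (chromosome 14, 100096170 to 100097283, 3.76), DST (chromosome 6, 56920505 to 56922801, 3.49) and PARVB (chromosome 22, 44058700 to 44059681, 3.44). The strongest unshared control peaks reached higher values within their own list. After the 2 at TNS1 given above came peaks at TLN2 (chromosome 15, 62811302 to 62812789, −log10 q 6.11), again TNS1 (217899049 to 217900007, 5.67) and NEDD9 (chromosome 6, 11236127 to 11237222, 5.66). All 5 lay in the highest quartile of the control list.

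Bases covered in both lists made up 62.6% of the bases covered in either, against 54.8% over the genome. In all, 264207 bases were covered in the knockout list alone and 482916 in the control list alone. Of these, 13.5% lay in unshared peaks in the knockout list and 28.3% in the control list. The rest lay at the edges or in the gaps of shared peaks. The lists also differ in their shortest peak and smallest gap, and the part of that in the edges was not tested.

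The start sites lie inside the windows whose values chose the genes, so their values are a description too. The RefSeq table held 77 start sites for 31 of the 36 genes, and several genes have many, so the sites are not independent. The start itself was inside a peak at 23 sites in the knockout list and at 23 in the control list (29.9% each), with 17 sites common to both. Over 22132 start sites of protein-coding genes the shares were 24.1% in the knockout list and 15.0% in the control list. Start sites inside a knockout peak alone numbered 6 of 77 (7.79%), against 12.7% of all sites. Start sites inside a control peak alone numbered 6 of 77, against 3.70% of all sites. Of the 6 control-only sites 3 are at TNS1, 2 at BCAR3 and 1 at BCAR1, and the 6 knockout-only sites are at MACF1, LIMS1, LIMCH1, TRIP6, ACTN1 and BCAR1.

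Coverage dipped at the start and peaked about 2000 bases downstream. At 2000 bases downstream 62.3% of the 77 sites were in a knockout peak and 59.7% in a control peak, against 37.1% and 39.1% of all sites. Farther into the genes the knockout list thinned out sooner. At 5000 bases downstream 39.0% of sites were in a knockout peak and 55.8% in a control peak, and over all sites these were 16.3% and 21.5%. The 48 sites that lay in no peak were GC-rich, with a median of 70.3% G and C and 29 CpG dinucleotides in 300 bases. The 17 inside peaks of both lists had 54.3% and 5 CpG dinucleotides. Over all genes the corresponding medians were 62.3% with 20 and 61.0% with 17.

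**Figure D4:**
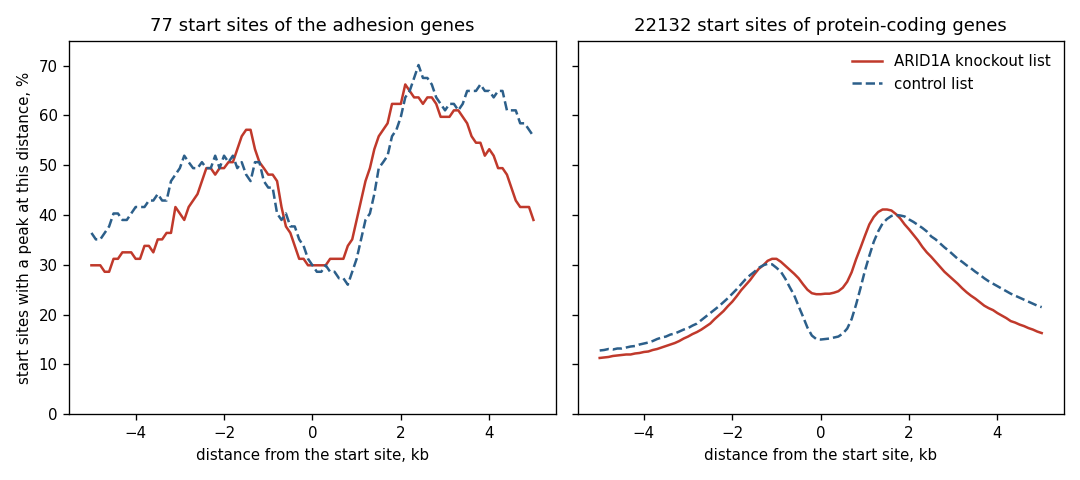
Percent of RefSeq start sites that have a peak at each distance from the start, in kb with downstream to the right, for 77 sites of the adhesion genes and 22132 sites of protein-coding genes; solid red lines are the knockout list and dashed blue lines the control list. At the start the lines of all genes are apart, at 24.1% in knockout and 15.0% in control cells, whereas those of the adhesion genes meet at 29.9%.

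The 250 bases before the start are given for 4 sites inside a peak of 1 list alone, those whose peak had the highest −log10 q. Here the lists differ at the start itself, not necessarily over all 250 bases. They are read 5′ to 3′ from RefSeq GRCh38.p14, on the minus strand in each case. Capitals mark matches, on either strand, to GGAATG, the core bound by TEAD factors, and to the CArG box of serum response factor, a known activator of actin cytoskeleton genes. TGANTCA, the AP-1 site, was also searched and had no match in the 4 sequences. The TNS1 and the first BCAR1 sequence precede starts inside control peaks alone, and the ACTN1 and the second BCAR1 sequence precede starts inside knockout peaks alone.
TNS1 chr2:217920237-217920486 (minus strand): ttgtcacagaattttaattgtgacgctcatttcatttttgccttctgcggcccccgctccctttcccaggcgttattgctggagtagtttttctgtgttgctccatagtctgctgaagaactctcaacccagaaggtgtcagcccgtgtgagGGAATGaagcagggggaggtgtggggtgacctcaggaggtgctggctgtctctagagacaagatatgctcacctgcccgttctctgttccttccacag
BCAR1 chr16:75238661-75238910 (minus strand): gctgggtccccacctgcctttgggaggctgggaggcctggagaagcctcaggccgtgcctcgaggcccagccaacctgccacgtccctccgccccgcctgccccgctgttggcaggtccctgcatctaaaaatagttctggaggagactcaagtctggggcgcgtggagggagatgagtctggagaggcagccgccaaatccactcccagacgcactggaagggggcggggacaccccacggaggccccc
BCAR1 chr16:75266008-75266257 (minus strand): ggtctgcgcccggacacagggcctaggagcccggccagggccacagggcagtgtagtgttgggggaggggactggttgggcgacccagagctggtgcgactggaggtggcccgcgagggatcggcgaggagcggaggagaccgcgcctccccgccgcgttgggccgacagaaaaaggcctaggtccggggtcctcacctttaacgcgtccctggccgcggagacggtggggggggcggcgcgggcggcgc
ACTN1 chr14:68977567-68977816 (minus strand): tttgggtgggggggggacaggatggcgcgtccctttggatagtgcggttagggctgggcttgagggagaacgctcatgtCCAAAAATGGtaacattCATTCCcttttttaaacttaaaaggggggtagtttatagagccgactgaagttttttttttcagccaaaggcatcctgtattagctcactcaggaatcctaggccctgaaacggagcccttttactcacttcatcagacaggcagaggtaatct

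Only the TNS1 site was far from a peak of the other list. Its start at 217920236 lies inside the 6407-base control peak described above, and the nearest knockout peak was 14453 bases away. The ACTN1 start, inside the knockout peak of 41964 bases, was 253 bases from the nearest control peak. At BCAR1 the distances to the nearest peak of the other list were 436 bases for the control-only and 181 bases for the knockout-only start. The ACTN1 sequence holds 1 CArG box and 1 GGAATG match on the opposite strand, which do not overlap. The knockout peak at ACTN1 ends at 68977651, between the start and these matches, so both lie outside the peaks of either list. The TNS1 sequence holds 1 GGAATG match, inside the control peak. The BCAR1 sequences hold none of the motifs. A match is a string of letters and was not shown to be bound.

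The implied input background was near the genome-wide ratio for most of the 36 genes. It lay between 0.8 and 1.25 at 30 of them, above 1.25 at DST, NEDD9, PARVA, ENAH and ILK, and below 0.8 at LPP alone. Over the 36 genes it had a Spearman correlation of -0.08 with the ratio of covered bases, given as a description since the points share the same 2 lists. The part of the input in the other differences was not tested.

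**Figure D5:**
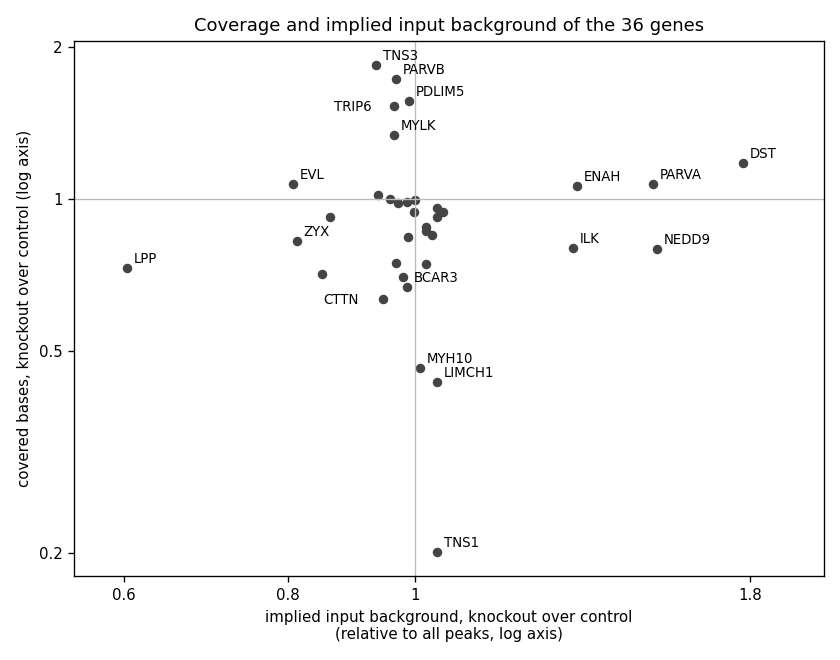
Ratio of covered bases (knockout over control) against the implied input background ratio (knockout over control, relative to all peaks) for the 36 genes, both on log axes; each point is a gene. LPP (0.604) and DST (1.78) stand at the ends of the horizontal axis, while TNS1, LIMCH1, TNS3 and PDLIM5 have large differences in coverage at ratios of 0.934 to 1.04.

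With peaks of −log10 q of at least 5, the list was more evenly split. Coverage was then higher in the knockout list at 12 of 36 genes and lower at 15, against 26.7% and 17.7% of all genes. The ratio of covered bases was 0.950 for the 36 genes and 1.14 for all genes. The knockout list holds more of these stronger peaks than the control list, 27571 against 23884.

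A second list of 73 adhesion and actomyosin genes that are not among the 36 was examined. Of these, 21 (28.8%) were more and 34 (46.6%) less covered in knockout cells, against 20.2% and 30.0% of all genes, with a median difference of -520 bases and a ratio of 0.912. Restricted to −log10 q of at least 5, that list had the opposite order, at 32 more and 24 less covered (26.7% and 17.7% of all genes), with a median difference of 291 bases and a ratio of 1.01. Of 14 kinases and adaptors of that list, 2 (14.3%) were more and 10 (71.4%) less covered, but 7 were more and 4 less covered with a −log10 q of at least 5. In these the Src-family gene FYN had 27722 knockout and 35657 control bases, and PTK2B, the paralog of PTK2, had 25665 and 24414. Of 9 kindlin, parvin and scaffold genes, 6 were more and 2 less covered in knockout cells, and 5 and 2 with a −log10 q of at least 5. In this group KANK1, whose product binds talin at the rim of adhesions, had 11405 knockout and 26799 control bases.

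The largest deficits of that second list, chosen after the values were seen, were at PHLDB2, CALD1 and LIMA1. PHLDB2, which encodes a cortical anchor of microtubules next to adhesions, had 107272 knockout and 134953 control bases. CALD1, which encodes caldesmon, had 27536 and 49294, and LIMA1, which encodes the actin crosslinker EPLIN, had 39410 and 60393. Among genes more covered in knockout cells, also chosen after the values were seen, were ROCK2, a kinase that activates myosin II, with 34779 knockout and 21843 control bases, and PPP1R12A, which targets the phosphatase that switches myosin off, with 40832 and 31612. ROCK1 had 7848 knockout and 11670 control bases.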

How the data were processed

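H3K4me1 was profiled in MDA-MB-231 cells with or without ARID1A knockout, with groups taken from the sample titles. The protocol text names an antibody against H3K4me3, while titles and antibody labels say H3K4me1, the name used here. The submitters' processing notes name MACS2 2.2.6, Bowtie2 2.3.5.1 and the build hg38. No source used here gives the peak-calling settings or how replicates entered, so each list was taken as pooled. Per the file headers, each deposited peak has a pileup (signal), a fold enrichment over input and the −log10 of a q-value. The lowest −log10 q was 1.01 in each list.

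The shortest peak was 361 bases in the knockout list and 312 in the control list, and the smallest gap between peaks 1445 and 1249 bases, so the fragment lengths set in the 2 calls appear to differ. Covered bases, overlaps of at least 1 base, start sites and counts were computed with Python 3.11.15, pandas 2.3.3, numpy 2.4.6 and exact (Clopper-Pearson) intervals from scipy 1.17.1. The code was tested on simulated data against a base-by-base count. Peaks off chromosomes 1 to 22 and X (3 knockout, 6 control) were left out. Gene records, start sites and promoter sequences came from RefSeq GRCh38.p14, and all 36 symbols matched a record. The implied input background of a peak was (pileup + 1) / fold − 1. Its median over peaks within 1000000 bases of a gene, knockout over control, was divided by the same ratio over all peaks. No genome sequence was used, so peak sequences are not shown.

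The members and gene lists were chosen with earlier results of these data known. Values are given for all 36 genes. Fuller accounts went to the 10 genes of largest absolute difference, to genes whose difference turned among peaks of −log10 q of at least 5, and to the strongest single-list peaks. The alternatives were peaks of −log10 q of at least 5, of fold of at least 4, the 60000 of highest −log10 q in each list, a common merging distance of 1444 bases with a shortest peak of 361, windows with 0 or 50000 bases on either side, and other thresholds for a call, an overlap or a start site.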

Additional observations from a re-analysis of the deposited data

How the results depend on the processing

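The counts of genes more and less covered in the knockout list stayed within 1.5 times of 8 and 20 under every choice of peaks and window. Of all 19974 genes, 5994 were less covered at first, 3535 with −log10 q of at least 5 and 9196 with 50000 bases on either side. With a call at 2000 bases, 5 of the 36 genes were higher and 16 lower. With a ratio of at least 1.5 besides 1000 bases, 4 were higher and 4 lower. The shares of all genes at these thresholds are not given here, so neither split can be called particular to the 36 genes. The ratio of covered bases of 0.874 became 0.950 with −log10 q of at least 5 and 0.799 with a fold of at least 4. Over all genes 0.942 became 1.14 and 0.867 in these settings. The median difference of -1425.5 bases became -782 with −log10 q of at least 5, -787.5 in the gene record alone and -4396.5 with 50000 bases on either side. Over all genes the median stayed 0 with −log10 q of at least 5 and in the gene record alone. With 50000 bases on either side it was -635. The percent of knockout peaks without overlap, 9.30, became 28.2 with −log10 q of at least 5, 31.2 with a fold of at least 4 and 21.4 when 50% of a peak had to be covered. For control peaks 25.5 became 19.5, 34.3 and 35.5 in the same settings and 18.0 with the 60000 highest peaks of each list. The same shares over the whole lists are not given here for these settings. Start sites with a peak within 1000 bases numbered 51 in the knockout list and 49 in the control list. Of 28 genes called, 18 kept their sign in all 6 choices of peaks and window, including 7 of the 10 with the largest difference. The difference turned with a fold of at least 4 at LPP (14664), DST (-23893), PDLIM5 (-708), VASP (388) and ILK (3314). It turned with −log10 q of at least 5 at TLN2 (4129), ILK (4385), CTTN (546) and PARVB (-1410), and with 50000 bases on either side at EVL (-1811). At PDLIM5 and PARVB the strongest peaks of the 2 lists lay close to the cut on either side. The cause was not tested. No paired analysis was possible because each genotype has 1 pooled peak list, and for the same reason no replicate could be left out. Depth is unknown, so a peak near the threshold in 1 list and missing from the other may differ by little.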

Other observations

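The 300-base windows around the start sites (250 bases before to 50 after) were searched for 3 motifs on both strands, and overlap between matches of different motifs was allowed. A CArG box was present in 3 of 77 windows of the adhesion genes (3.90%) and in 1.25% of 22132 windows of protein-coding genes. These 3 windows belong to MYLK, LPP and ACTN1. The MYLK start, the only start held for that gene, lies 263784 bases into its record of 274284 bases, near the 3′ end. GGAATG was present in 23.4% of the windows of the adhesion genes and in 12.2% of all windows. TGANTCA was present in 14.3% and 6.15%. Many of these windows belong to the same gene, so they are not independent, and no test was made. The LPP start at 188212712, which lies inside a peak of both lists, holds all 3 motifs within its window.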
